A study of Mus musculus with 10 samples.

Results

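The mouse miRNAs mmu-miR-335-3p, mmu-miR-290-5p and mmu-miR-1983 have been reported to respond to aldosterone in cells of the cortical collecting duct, and mmu-miR-335-5p is the other arm of the miR-335 hairpin. The 4 probes were taken by name from the 1040 mouse miRNA probes on the array. Total RNA came from mIMCD-3, an established mouse cell line of the inner medullary collecting duct, grown on transwell filters and kept in hormone-free medium for a day. The groups were 5 samples given 100 nM aldosterone and 5 given its ethanol vehicle, with the same line and medium in both. Nothing in the labels says that the samples were separate cultures, so the p-values cover the scatter of these samples alone, and that scatter may be technical. The duration of treatment is not given in the sources used here.

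Aldosterone is the steroid hormone that binds the mineralocorticoid receptor in the distal nephron and collecting duct and raises sodium uptake through the epithelial sodium channel ENaC. A miRNA pairs with target mRNAs mainly through its seed, the bases near its 5′ end, and lowers their translation or stability. In a mouse cortical collecting duct line, miR-335-3p, miR-290-5p and miR-1983 were reported as lowered by aldosterone, and Ank3, which encodes the membrane scaffold ankyrin G, was reported as a target. The values below give the same miRNAs in a line from a deeper segment of the duct.

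The mature sequences are shown because they say which miRNAs share a seed and could therefore share targets. All 4 members matched an entry in the RefSeq table (GRCm38.p6), where the array's miR-290-5p is listed as miR-290a-5p. Capitals mark the seed, bases 2 to 8, read 5′ to 3′.
miR-335-3p: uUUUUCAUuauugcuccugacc
miR-335-5p: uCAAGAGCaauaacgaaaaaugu
miR-290-5p: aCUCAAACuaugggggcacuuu
miR-1983: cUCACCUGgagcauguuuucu
None of the 4 seeds was shared with another of the 4. Among 1679 mature mouse miRNAs in the table, neither seed of miR-335 occurred again. The miR-335 arms are 22 bases (3p) and 23 bases (5p) long, with 36.4% and 30.4% G or C, and 11 of the 22 bases of the 3p arm are U. The other 2 members have a more even composition, 45.5% G or C in miR-290-5p and 47.6% in miR-1983.

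Both miR-335 arms are cut from a single hairpin at chr6:30741299-30741396 on the plus strand, inside Mest, an imprinted protein-coding gene. The hairpin is printed because the 2 arms, in capitals, come from a single transcript and can be read side by side on the arrays.
Mir335: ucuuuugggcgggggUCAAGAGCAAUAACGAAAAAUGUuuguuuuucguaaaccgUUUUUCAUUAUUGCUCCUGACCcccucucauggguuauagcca
The 5p arm takes positions 16 to 38 of its 98 bases and the 3p arm positions 56 to 77.

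miR-290-5p lies at chr7:3218639-3218660 on the plus strand, at the start of the miR-290 to miR-295 cluster, 9 annotated miRNA genes within 2.22 kb. The cluster is known as the most abundant miRNA locus of mouse embryonic stem cells. Some of its 5p arms are shown because 2 of them carry the seed of miR-290-5p and another 2 nearly do. Other 5p arms of the cluster, such as miR-291a-5p and miR-291b-5p, are not shown. Capitals again mark bases 2 to 8.
miR-292-5p: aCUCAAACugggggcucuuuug
miR-293*: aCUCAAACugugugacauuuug
miR-294*: aCUCAAAAuggaggcccuaucu
miR-295*: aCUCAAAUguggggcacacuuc
Aligned from base 1 without gaps, miR-292-5p matched miR-290-5p at 15 of 22 positions and miR-293* at 14. miR-294* matched at 13 positions and miR-295* at 15, each with a different last seed base. No other mature miRNA in the table has the seed of miR-290-5p.

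miR-1983 lies at chr13:21896930-21896950 on the minus strand. The RefSeq gene table places a transfer RNA gene, n-TItat14, wholly inside the miR-1983 hairpin, where it covers 94 of 132 bases. Of the 21 bases of the mature miRNA, shown in capitals in the hairpin, 13 fall in that tRNA gene and 8 outside it.
Mir1983: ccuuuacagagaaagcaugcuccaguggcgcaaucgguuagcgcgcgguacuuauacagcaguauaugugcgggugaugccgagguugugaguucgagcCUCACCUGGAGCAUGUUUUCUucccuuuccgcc
Of 1228 mouse miRNA genes in that table, Mir1983 was the 1 that overlapped any of its 430 tRNA genes. The seed of miR-1983 is shared with 1 other mature mouse miRNA, miR-412-3p.

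Each array carried every probe on 2 spots and 778 blank spots, whose mean, as the authors computed it, was 17.6 to 21.4 intensity units. Detection on an array required that both spots passed the authors' threshold, which lay 1.29 to 2.04 units above that background. Aldosterone arrays had 460.6 ± 78.4 detected mouse probes, against 391.6 ± 84.0 on vehicle arrays (SD, n = 5), from 275 on vehicle replicate 2 to 583 on aldosterone replicate 3. The median intensity of the 243 probes detected throughout was 26.7 ± 17.4 units with aldosterone and 17.8 ± 9.73 with vehicle, and higher with aldosterone in all 5 same-numbered pairs. The cells carried epithelial miRNAs, with 3 of 10 miR-200 family probes (miR-200a, miR-200b and miR-429) detected on all arrays. In the same family miR-200c was detected on 2 arrays and miR-141 on 1. Their 10 probes summed to 208 to 402 normalized units with aldosterone and 155 to 387 with vehicle. Of 7 blood cell probes 6 were detected on no array, and of 9 fibroblast and endothelium probes 3, against 34.2% of all mouse probes. In the fibroblast and endothelium list miR-126-3p was detected on 9 arrays, miR-214 on 6 and miR-143* on 5. Among 39 viral miRNA probes, for which these cells should hold no RNA, 23 passed on at least 1 array (59%), 17 on 3 or more (43.6%) and 9 on 9 or more (23.1%). The mouse probes passed at 65.8%, 48.4% and 28.2% by the same counts.

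Neither arm of miR-335 stood clear of background in mIMCD-3 cells. The 3p arm was detected on 1 aldosterone array and no vehicle array, and the 5p arm on 2 aldosterone arrays and 1 vehicle array. Being detected on more aldosterone than vehicle arrays held for 42.8% of the 684 mouse probes detected at all. With 1 and 3 arrays of 10, both arms fell short of the 5 arrays required for the test, so no p-value is given for them.

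For miR-335-3p, the arm reported in cortical cells, the mean of its 2 spots lay 0.718, 0.618, 2.68, 0.311 and 0.770 units above background in aldosterone replicates 1 to 5. In vehicle replicates 1 to 5 it was 1.25, -0.893, -0.440, 1.12 and 0.744 units. Aldosterone replicate 3, the brightest array of the series, was above all others, and the remaining 9 arrays of the 2 groups overlapped.

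The means were 1.02 ± 0.943 units with aldosterone and 0.356 ± 0.966 with vehicle (SD, n = 5), and aldosterone was higher in 3 of 5 pairs. Single spots of this probe scattered within an array with an SD of 0.864 units, which is not the error of a group mean. The group means, of 5 arrays with 2 spots each, differed by 0.662, with a pooled SD between arrays of 0.955. After normalization between arrays the levels were 3.46 ± 0.543 units with aldosterone and 3.17 ± 1.01 with vehicle, a log2 difference of 0.008. Normalized levels here are intensity units after normexp correction and quantile normalization, and background does not lie at 0 on that scale. In vehicle replicate 3, for example, this probe lay -0.440 units from background and had a normalized level of 2.17. Unless stated otherwise, each log2 difference is of the intensity plus 50, which understates the change of dim probes.

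miR-335-5p, the arm from the other side of the hairpin, lay 2.92, 0.889, 3.49, 0.802 and -0.172 units above background in aldosterone replicates 1 to 5. In vehicle replicates 1 to 5 it was 2.65, -0.320, 1.05, -0.0121 and 0.735 units. Replicates 1 and 3 with aldosterone and replicate 1 with vehicle were the 3 arrays on which it was detected, and the groups overlapped.

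Its means were 1.59 ± 1.55 units with aldosterone and 0.821 ± 1.16 with vehicle, higher with aldosterone in 4 of 5 pairs. These values are not normalized, and without normalization 96.0% of the tested probes had a higher mean log2 value with aldosterone. Normalized, it was 3.90 ± 1.08 units with aldosterone and 3.51 ± 0.846 with vehicle, a log2 difference of 0.010. Scaled to the 75th percentile of the probes detected on all arrays, the differences were -0.331 for the 3p arm and -0.329 for the 5p arm. Scaled to the spike controls they were -0.169 and -0.166. Each of these scalings shifts all probes of an array by the same log2 amount, also a probe at background. The sign after such a shift is therefore no direction of change of miR-335. Over the 10 arrays the normalized values of the 2 arms had Pearson r = 0.208 (Spearman rho = 0.0790). The 24 negative control spots averaged between -0.0727 and 1.11 units above background per array. Of the 20 array values of both arms, 10 lay in that range, 6 above it and 4 below it.

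**Figure D1:**
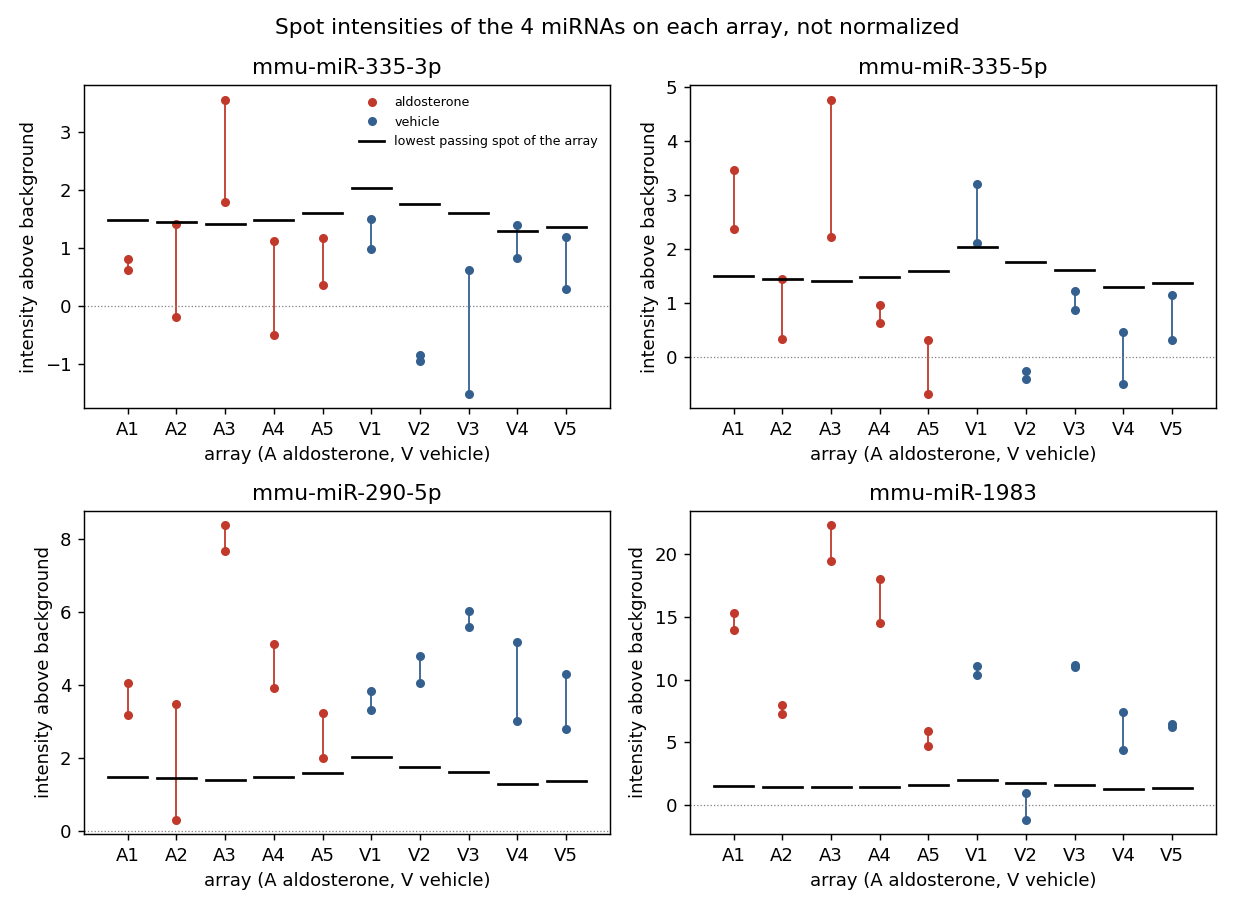
Intensity above the authors' background (units, not normalized) of both spots of each miRNA on the 5 aldosterone (A1 to A5, red) and 5 vehicle arrays (V1 to V5, blue), with a black bar at the lowest spot that passed the authors' threshold on that array. Of the 40 spots of the miR-335 arms 31 lie below the bars; miR-290-5p has both spots above them on 9 arrays, and miR-1983 lies above them on every array but V2.

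miR-290-5p was detected on 4 aldosterone arrays and 5 vehicle arrays, which allowed a test. Detection on 9 or more arrays, reached by miR-290-5p and miR-1983, was also reached by 23.1% of viral and 28.2% of mouse probes. Such detection alone therefore hardly separates a mouse miRNA from unspecific signal. Before normalization the miR-290-5p spots averaged 3.62, 1.90, 8.03, 4.52 and 2.61 units above background in aldosterone replicates 1 to 5. In vehicle replicates 1 to 5 they averaged 3.59, 4.42, 5.81, 4.09 and 3.55 units. The aldosterone arrays spread more widely on both sides of the vehicle arrays.

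The unnormalized means were 4.14 ± 2.39 units with aldosterone and 4.29 ± 0.923 with vehicle, with aldosterone higher in 3 pairs and lower in 2. Quantile normalization gave 5.98, 5.09, 6.67, 7.05 and 5.76 units in aldosterone replicates 1 to 5. The vehicle values, in the same order, became 5.90, 11.6, 6.89, 9.97 and 7.51 units. The 2 highest, vehicle replicates 2 and 4, were the 2 dimmest arrays of the series by the median of the always-detected probes (9.48 and 11.2 units). The 8 other arrays, with both groups among them, lay between 5.09 and 7.51.

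On the normalized scale miR-290-5p averaged 6.11 ± 0.773 units with aldosterone and 8.38 ± 2.36 with vehicle (SD, n = 5), lower with aldosterone in 4 of 5 pairs. A decrease in at least 4 pairs was found for 16.5% of the 430 tested probes. The log2 change was -0.056 (SE 0.027, 95% interval -0.117 to 0.004), with an adjusted p of 0.9445 by limma with Benjamini-Hochberg adjustment over the 430 probes. Around the vehicle level of 8.34 units that interval spans an aldosterone level of 3.80 to 8.51 units, or 0.456 to 1.02 times vehicle. Background is not 0 on this scale, so these are not ratios of signal above background. Without normalization between arrays the log2 change was -0.008 (SE 0.031), and without vehicle replicate 2 it was -0.037 (SE 0.021).

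miR-1983 was detected on 5 aldosterone arrays and 4 vehicle arrays. Its unnormalized spots averaged 14.6, 7.62, 20.9, 16.3 and 5.32 units in aldosterone replicates 1 to 5. In vehicle replicates 1 to 5 they averaged 10.7, -0.0901, 11.1, 5.93 and 6.32 units. Aldosterone replicates 1, 3 and 4 exceeded every vehicle array, aldosterone replicate 5 was below 4 of the 5, and vehicle replicate 2 was at background.

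Its unnormalized means were 12.9 ± 6.39 units with aldosterone and 6.78 ± 4.52 with vehicle, and 4 of 5 pairs were higher with the hormone. Without normalization, 96.0% of the tested probes had a higher mean log2 value with aldosterone. After quantile normalization the aldosterone replicates 1 to 5 had 15.3, 13.1, 11.9, 20.1 and 8.65 units. The vehicle replicates 1 to 5 had 13.0, 3.10, 10.1, 13.1 and 12.2 units. Aldosterone replicates 1 and 4 lay above every vehicle array but the groups overlapped: aldosterone replicate 5 lay below 4 vehicle arrays, and vehicle replicate 2 was the lowest of all.

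Normalized miR-1983 averaged 13.8 ± 4.24 units with aldosterone and 10.3 ± 4.21 with vehicle (SD, n = 5), again higher in 4 of 5 pairs. An increase in at least 4 pairs was found for 19.8% of the tested probes. The log2 change was 0.082 (SE 0.060, 95% interval -0.053 to 0.217), with an adjusted limma p of 0.9445. That interval spans 8.02 to 19.9 units around a vehicle level of 10.2, or 0.788 to 1.96 times vehicle, again on a scale where background is not 0. Without vehicle replicate 2 the log2 change was 0.037 (SE 0.047), and without aldosterone replicate 4 it was 0.048 (SE 0.057). Scaled to the 75th percentile of the probes detected on all arrays, the log2 change was -0.208 (SE 0.268). Scaled to the spike control spots it was -0.046 (SE 0.107), so that its direction depends on the scaling. Each of these scalings shifts all probes of an array by the same log2 amount.

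**Figure D2:**
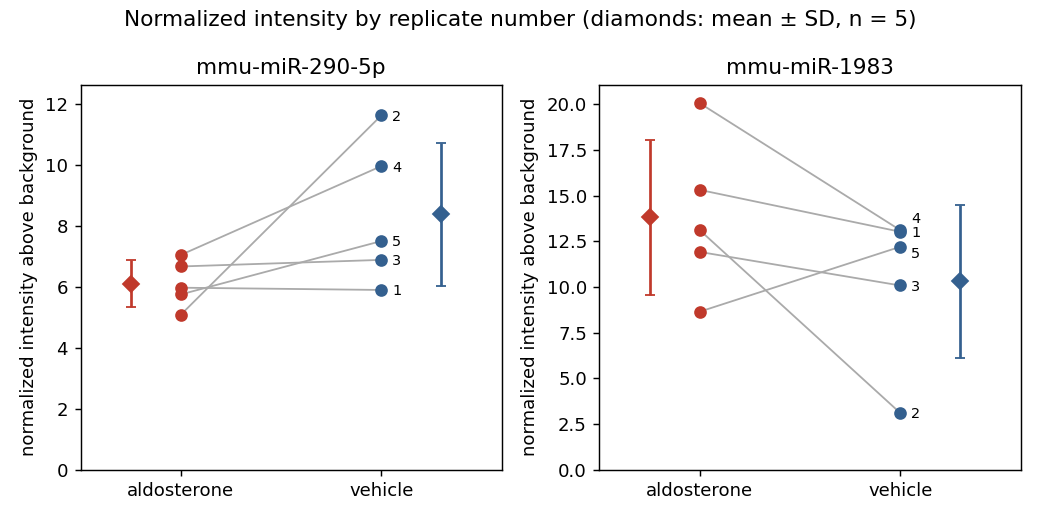
Normalized intensity above background (units) of miR-290-5p and miR-1983 with aldosterone (left, red) and vehicle (right, blue); grey lines join arrays with the same replicate number, and diamonds with bars give the mean ± SD of 5 arrays. For miR-290-5p 4 of 5 lines end higher at vehicle, and for miR-1983 4 of 5 end lower, with the steepest line in each panel being replicate 2.

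The direction reported for cortical cells, lower with aldosterone, was that of the quantile-normalized mean of miR-290-5p and not of miR-1983 or either miR-335 arm, but miR-290-5p and miR-1983 missed the threshold and the miR-335 arms were not tested. Of the 430 tested probes, 0 passed the adjusted threshold of 0.05 in limma (0%), and 8 had an unadjusted limma p under 0.05 (1.86%), among them neither miR-290-5p nor miR-1983. With the replicate number as a block 19 had one (4.42%), again neither of them, with block adjusted limma p of 0.7438 for both. The 2 groups of arrays overlapped for every tested probe, with 0 of 430 (0%) apart. By size of change, without regard to sign, miR-290-5p was larger than 76.5% and miR-1983 larger than 82.3% of the tested probes. The median log2 change of all tested probes was 0.003.

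**Figure D3:**
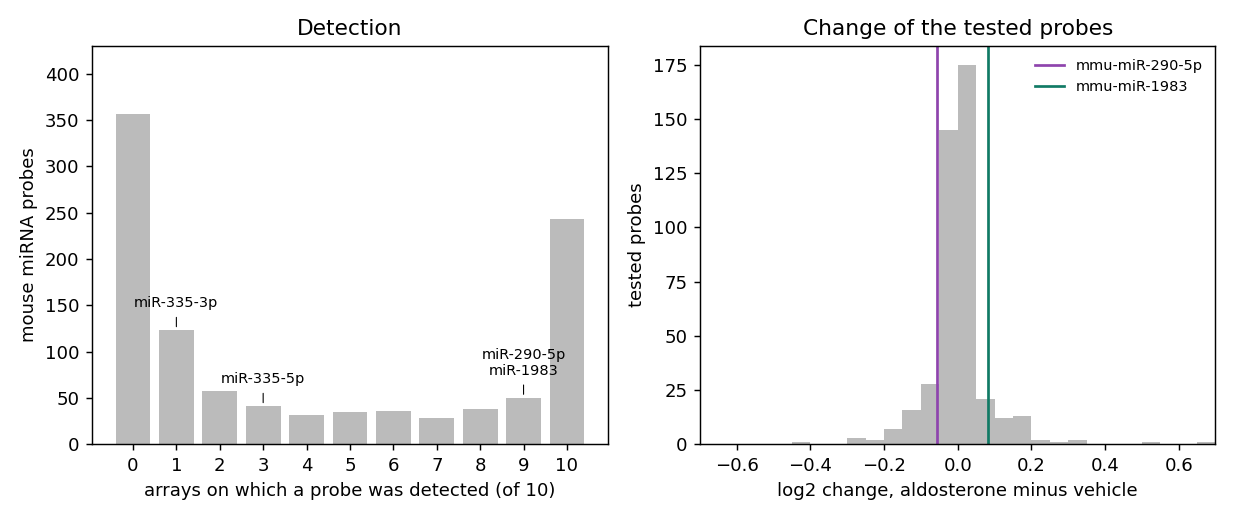
Left, the number of mouse miRNA probes (1040) by the number of arrays, of 10, on which they were detected, with the 4 miRNAs marked at 1, 3 and 9 arrays. Right, the log2 change (aldosterone minus vehicle) of the 430 tested probes, with miR-290-5p at -0.056 and miR-1983 at 0.082 both inside the main body of the distribution.

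Of the 13 other probes of the miR-290 to miR-295 cluster, 6 were detected on no array (46.2%) and 0 on every array, beside 356 of all 1040 mouse probes on none (34.2%). The 2 that were tested, miR-290-3p and miR-292-3p, did not pass the threshold. With miR-290-5p, the cluster's 3 tested probes had a median log2 change of -0.007. miR-290-3p, from the other side of the miR-290 hairpin, averaged 5.21 ± 1.21 units with aldosterone and 5.00 ± 0.561 with vehicle. miR-292-3p, a stem cell miRNA, averaged 5.11 ± 0.480 units with aldosterone and 5.38 ± 0.752 with vehicle. Their log2 changes were 0.005 and -0.007 (adjusted limma p 0.953 for both), against a median of 0.003 over all tested probes.

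The miRNAs that share a seed with a member were rarely detected. miR-292-5p passed on 1 aldosterone and 1 vehicle array, at 3.63 ± 0.353 units with aldosterone and 3.93 ± 1.04 with vehicle. miR-293* passed on 0 arrays, at 2.26 ± 0.659 units with aldosterone and 3.30 ± 1.04 with vehicle. miR-412-3p, which has the seed of miR-1983, passed on 1 aldosterone array and no vehicle array, at 3.37 ± 0.527 units with aldosterone and 3.56 ± 1.01 with vehicle. No seed partner therefore reached the number of arrays needed for a test.

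The 3 tested probes most like miR-290-5p over the 10 arrays, by Pearson r of normalized log2 values, were miR-3104-5p (r = 0.933), miR-3077* (r = 0.875) and miR-3102* (r = 0.859). miR-3104-5p averaged 21.2 ± 2.11 units with aldosterone and 26.5 ± 6.41 with vehicle, and was lower with aldosterone in 5 of 5 pairs. All 3 likenesses weakened when vehicle replicates 2 and 4 were left out, to 0.504, 0.624 and 0.649, and these were the 2 dimmest arrays. The arrays share a normalization, and the part of array brightness in these likenesses was not tested.

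For miR-1983 they were miR-1274a (r = 0.932), miR-770-5p (r = 0.846) and miR-3072 (r = 0.818). miR-1274a had 74.3, 65.6, 46.4, 74.3 and 47.1 units in aldosterone replicates 1 to 5, and 57.0, 28.7, 51.4, 64.1 and 57.0 units in vehicle replicates 1 to 5. As for miR-1983, vehicle replicate 2 was the lowest array and aldosterone replicates 1 and 4 were the highest. Without vehicle replicate 2 and aldosterone replicate 4, r was 0.846 for miR-1274a, 0.727 for miR-770-5p and 0.0908 for miR-3072. In human, the entry called miR-1274a is known to match the end of a lysine tRNA. Between the members themselves, miR-290-5p and miR-1983 had r = -0.511 (Spearman rho = -0.140).

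**Figure D4:**
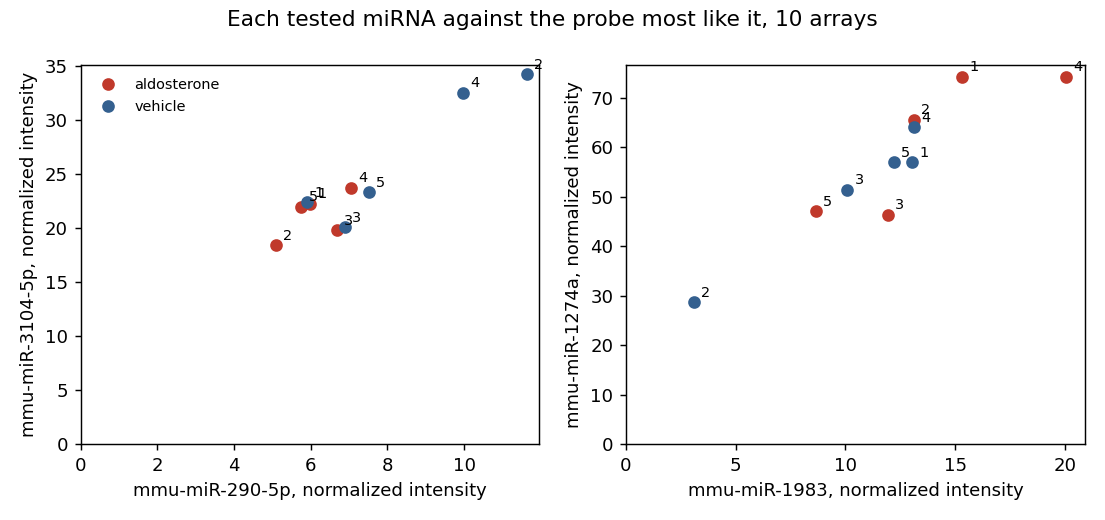
Normalized intensity (units) of miR-290-5p against miR-3104-5p and of miR-1983 against miR-1274a on the 10 arrays, aldosterone in red and vehicle in blue, numbered by replicate. Vehicle replicates 2 and 4 lie apart from the rest on the left, while on the right the arrays of both groups lie along a line from vehicle replicate 2 to aldosterone replicate 4.

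Other miRNAs with a reported link to aldosterone were read in the same way. The miR-23, miR-24 and miR-27 probes, known from aldosterone-treated cortical duct cells as a cluster raised by the hormone, had 8 of 11 members tested, 5 with a higher and 3 with a lower normalized mean, 0 past the threshold, and a median log2 change of 0.063. miR-27b averaged 58.0 ± 6.24 units with aldosterone and 48.4 ± 10.8 with vehicle, and every pair was higher with the hormone (log2 change 0.140, SE 0.073, adjusted limma p 0.944). miR-23a averaged 422 ± 35.0 units with aldosterone and 376 ± 84.1 with vehicle, a log2 difference of 0.168 (SE 0.131). miR-24-2* averaged 24.1 ± 3.19 units with aldosterone and 21.6 ± 3.76 with vehicle, a log2 difference of 0.049 (SE 0.042).

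Of 12 probes for miR-192, miR-466g, miR-34c, miR-124, miR-135a and miR-135b, 3 were tested, 1 with a higher and 2 with a lower mean, 0 past the threshold, and a median log2 change of -0.018. miR-192, reported to target the sodium-transport kinase WNK1, averaged 7.63 ± 0.773 units with aldosterone and 8.36 ± 0.532 with vehicle, lower in 4 of 5 pairs (log2 change -0.018, SE 0.013). miR-34c* averaged 4.80 ± 1.02 units with aldosterone and 5.57 ± 2.73 with vehicle, and miR-466g 6.99 ± 1.22 units with aldosterone and 6.72 ± 1.10 with vehicle. miR-124 and miR-135a, reported regulators of the mineralocorticoid receptor mRNA, were detected on 0 arrays.

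**Figure D5:**
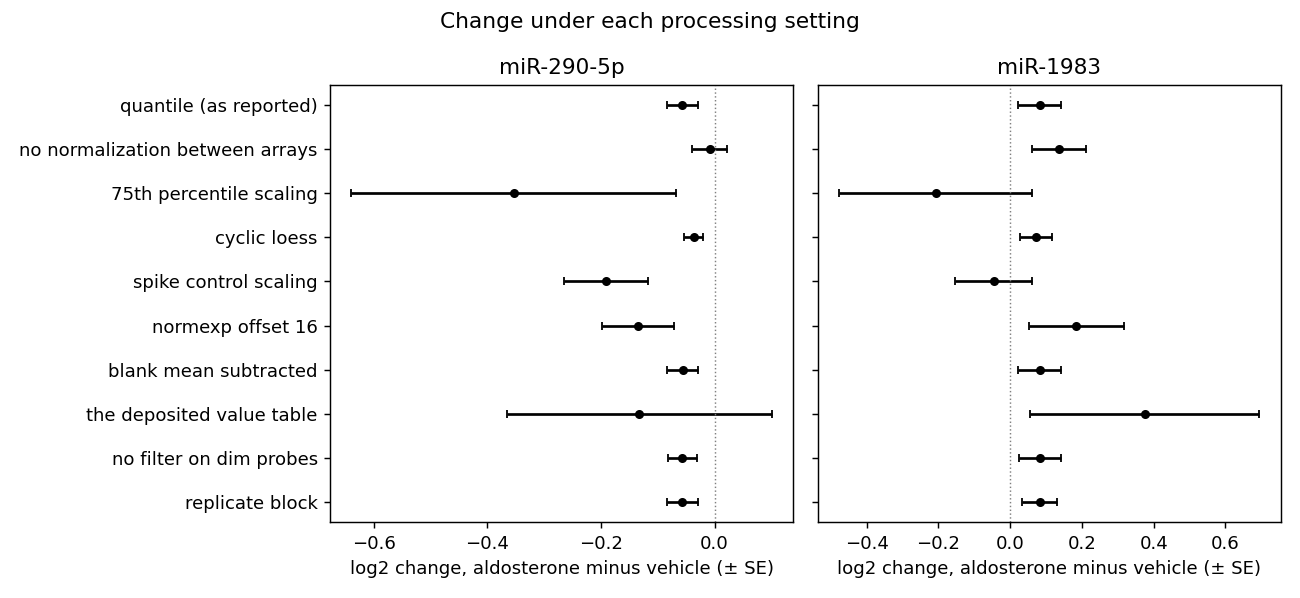
Log2 change (aldosterone minus vehicle, points with SE bars) of miR-290-5p and miR-1983 under quantile normalization and 9 other settings. miR-290-5p lies below 0 in all of them, between -0.353 and -0.008, while miR-1983 is above 0 in all but the scalings to the 75th percentile and to the spike controls. The replicate block and the lack of a filter can change only the SE.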

How the data were processed

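A note deposited with the arrays says that the authors gave each spot a raw intensity, subtracted the mean of the blank spots, passed spots above that mean plus 2 SD, averaged duplicates and scaled each array to a median of 25. The lowest passing spot lay 0.608 to 3.89 units below the mean plus 2 SD of all blank spots of its array. Which blank spots entered the authors' SD is not stated. The scanner is not given in the sources used here. From the deposited raw intensity, normexp (offset 50), log2, averaging of the 2 spots and quantile normalization were computed here (R 4.3.3, limma 3.58.1). The 4 spots with a quality flag were left out. Mouse probes detected on at least 5 of 10 arrays, 430 of 1040, were tested by limma (two-sided, Benjamini-Hochberg adjusted p under 0.05). The fit was first tried on simulated independent values with large planted changes, which says nothing of its power for small changes. Array number limits precision.

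Replicate numbers come from codes shared by the sample titles. Same-numbered arrays deviated together (r 0.202 to 0.814), so a fit with that block was an alternative, beside other normalizations, offsets and left-out arrays. The members and lists were chosen with earlier results of these data known. Named by rule were the 4 members, the 3 probes most like each tested one, seed partners, and the 3 of smallest unadjusted p in each list.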

Additional observations from a re-analysis of the deposited data

Results flagged for a closer look

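miR-335-3p in aldosterone replicate 3 lay 2.675 units above background, against 0.770 in the next highest of the 5 aldosterone arrays, a gap of 0.806 of the group's range. In 16 groups of values looked at in this way, chance alone would be expected to mark about 1 in 20. That array was also the brightest of the series, with 583 detected mouse probes and a median of 57.5 units for the probes detected throughout. Without it the log2 change of miR-335-3p was 0.003, against 0.008 with it.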

How the results depend on the processing

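No probe passed the threshold of adjusted limma p under 0.05 in any of 27 alternatives. Unadjusted limma p under 0.05 was found for 8 of 430 probes as reported, and of the same 430 for 0 with 75th percentile scaling, 7 with cyclic loess, 19 with the replicate block, 29 with spike control scaling and 160 with the block and no normalization. It was found for 0 of 243 probes where detection on all arrays was required, 28 of 524 in the authors' deposited table and 32 of 1040 without the filter. The share of tested probes higher with aldosterone was 53.0% as reported, 96.0% without normalization, 13.0% with 75th percentile scaling, 78.1% in the deposited table and 23.7% with spike control scaling, so directions depend on the scaling.

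The log2 change of miR-290-5p was negative in all 26 alternatives, from -0.353 to -0.008, with -0.0718 to -0.0300 when arrays or pairs were left out. Some alternatives could not change it: the replicate block and the fit without the filter keep the estimate of -0.056 by construction. With the replicate block the adjusted limma p of miR-290-5p was 0.7438. The log2 change of miR-1983 was 0.037 to 0.124 with arrays or pairs left out, 0.375 in the deposited table, and 0.137 without normalization. There the replicate block gave an adjusted limma p of 0.09874. It turned to -0.208 with 75th percentile scaling and -0.046 with spike control scaling. Each of these scalings shifts all probes of an array by the same log2 amount. The unnormalized changes were 0.014 for miR-335-3p, 0.016 for miR-335-5p, -0.008 for miR-290-5p and 0.137 for miR-1983. Each scaling therefore moved all 4 by the same amount. The same scalings moved miR-335-3p to -0.331 and -0.169 and miR-335-5p to -0.329 and -0.166. With arrays or pairs left out, miR-335-3p ranged from -0.004 to 0.022 and miR-335-5p from 0.0006 to 0.020. Leaving out vehicle replicate 2 lowered the size of both tested changes by over 1.5 times, to -0.037 for miR-290-5p and 0.037 for miR-1983, and leaving out aldosterone replicate 4 lowered miR-1983 to 0.048.

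The miR-335-3p arm was detected on 2 arrays if 1 passing spot sufficed. It was detected on 0 with a limit of 3 SD, taking the authors' passing margin as 2 SD, and on 0 with 2 SD of all blank spots. The last setting left miR-335-5p on 1 array, miR-290-5p on 7 and miR-1983 on 9. That setting and the fits that pair the block with no normalization or with the blank mean subtracted were chosen after the data were seen. Requiring detection on all 10 arrays left no member to test, and the miR-335 arms had too few values in the deposited table for a fit. The replicate block changed no call. Signals near the blank spots limit what can be said of miR-335. They also limit miR-290-5p, at means of 4.14 units above background with aldosterone and 4.29 with vehicle.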
